A study of Mus musculus with 12 samples.

Results

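Pseudogene models made up 4903 of the 87740 transcripts in the gene models deposited with RNA-seq of the mouse nucleus accumbens (NAc), and they lay at 4810 of 35406 loci. They were taken as every transcript whose second column reads pseudogene, a label of the annotation that uses no measured value. The RNA-seq itself compared 4 groups of C57BL/6 mice (of the J substrain per the study's methods) aged 8 to 10 weeks, with 3 pools of NAc in each group and 3 to 5 animals per pool according to the labels. Mice of the repeated groups received 7 daily intraperitoneal injections of cocaine at 20 mg/kg or of saline, mice of the acute group received saline for 6 days and then 1 injection of cocaine at 20 mg/kg, and the acute saline group was its control, with tissue taken 24 h after the last injection. The gene models are 1 set shared by all 12 pools and carry no expression value. A model listed here is therefore an annotated transcript and not one shown to be expressed in NAc, and all values below are counts over the complete set, with no replicate error and no test between groups.

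A pseudogene is a genomic copy of a gene that has lost its coding function or is thought to have lost it. Processed pseudogenes, or retrocopies, arise when an mRNA is reverse transcribed and inserted elsewhere in the genome, so they lack the introns of their parent gene and may end in the remains of a poly(A) tail. Unprocessed pseudogenes arise by duplication of genomic DNA, often beside the parent, and can keep the parental exons and introns. Because the sequence of either kind resembles a working gene, reads of that gene can align to both.

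Single-exon models formed most of the set, with 3897 of 4903 (79.5%), and 1006 models (20.5%) had more than 1 exon. Of the latter, 530 had 2 exons, 213 had 3, and 18 had 10 or more, up to 19. By contrast, 6.12% of the 50689 transcripts with a protein identifier (p_id, which marks a coding transcript) and 0.539% of the 2042 long intergenic noncoding RNA (lincRNA) transcripts had a single exon. Pseudogenes were thus 5.59% of all transcripts and 32.5% of those with a single exon. None of the 4903 carried a p_id. No single-exon model had a group for its transcriptional start site (TSS), whereas all 1006 multi-exon models had one. Single-exon transcripts of other classes were not checked for such a group, so this is not shown to be particular to pseudogenes. Models occurred on both strands in similar number, 2444 on plus and 2459 on minus. Most names were serial, 4032 of them beginning with Gm, 418 models had the suffix -ps somewhere in the name, and 118 were named as olfactory receptors (Olfr).

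Transcript identifiers linked 4893 models to GENCODE M1, an annotation of the same genome build (NCBIM37), which also gives the kind of pseudogene. Among 3668 models classed there as processed (including retrotransposed), 3300 had a single exon. Among 734 classed as unprocessed, 69.3% had more than 1 exon. The exon number hence followed the annotated origin for most models but not for all: 368 processed models were multi-exon and 225 unprocessed models were single-exon. A further 478 models had no class beyond pseudogene, 4 were unitary, meaning that the mouse has no working copy, and 9 had a type other than pseudogene.

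Single-exon copies of 4 genes show what the loss of parental introns looks like in sequence. Each was chosen among the copies that run through a junction of the coding sequence without a gap, as the one whose identity to the coding gene lay nearest to the median of those copies, for the 4 named spliced genes with most pseudogene loci (Gapdh, Rps2, Rps6 and Rpl7a, described below). In each pair the coding transcript is given across an exon junction inside its coding sequence, with the second exon in capitals, and the pseudogene is given over the same bases, with every base unlike the coding transcript in capitals (5′ to 3′, NCBIM37). Gapdh, encoding a glycolytic enzyme, is shown at chr6:125112697-125112890 on the minus strand and its copy Gm12684 at chr4:99097404-99097463 on the minus strand.
Gapdh transcript: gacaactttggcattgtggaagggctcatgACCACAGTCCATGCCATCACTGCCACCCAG
Gm12684: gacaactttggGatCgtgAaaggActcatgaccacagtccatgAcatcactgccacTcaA
Gapdh gene at the same junction, intron in capitals (chr6:125112831-125112890): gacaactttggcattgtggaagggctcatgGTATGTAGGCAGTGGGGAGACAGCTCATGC
The copy passed from the one exon to the next without the intron that follows the junction in the gene, and differed at 7 of 60 bases. Rps2, a protein of the small ribosomal subunit, is shown at chr17:24857647-24857943 on the plus strand and its copy Gm16305 at chr1:140888491-140888550 on the minus strand, with 4 differences. Gm16305 lies in an intron of Dennd1b, and GENCODE M1 classes it as unprocessed although it runs through the junction.
Rps2 transcript: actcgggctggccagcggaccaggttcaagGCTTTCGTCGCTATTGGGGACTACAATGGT
Gm16305: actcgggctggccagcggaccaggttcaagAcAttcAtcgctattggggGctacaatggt
Rps6, of the same subunit, is shown at chr4:86501888-86502079 on the minus strand and its copy Gm14172, which lies in an intron of Dlgap4, at chr2:156458916-156458975 on the minus strand, with 7 differences.
Rps6 transcript: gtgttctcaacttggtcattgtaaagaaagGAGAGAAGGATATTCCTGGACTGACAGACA
Gm14172: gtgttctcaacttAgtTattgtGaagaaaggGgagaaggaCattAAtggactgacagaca
Rpl7a, a protein of the large subunit, is shown at chr2:26767936-26768220 on the plus strand and its copy Gm15007 at chrX:135736139-135736198 on the minus strand, with 10 differences.
Rpl7a transcript: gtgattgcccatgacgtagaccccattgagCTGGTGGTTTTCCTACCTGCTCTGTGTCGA
Gm15007: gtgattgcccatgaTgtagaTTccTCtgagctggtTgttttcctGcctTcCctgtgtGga
Over their whole aligned length the identity was 89.1% for Gm12684, 89.0% for Gm16305, 75.6% for Gm14172 and 89.6% for Gm15007.

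Pseudogene models were short. Their spliced length ranged from 28 to 7293 bases with a median of 556, against a median of 1926 bases for coding and 1458 for lincRNA transcripts. Single-exon models had a median of 530 bases (quartiles 359 and 882) and multi-exon models a median of 639 (quartiles 456 and 1023). The ranges of both classes overlapped over nearly their whole extent. On the genome, introns set them further apart, with a median span of 2048 bases for multi-exon models. The longest single-exon model was 9130208D14Rik on chromosome 7 (7293 bases, 89.5% identical to the coding gene Gm4070 at a distance of 63603 bases). Mdm4-ps on the X chromosome followed with 6514 bases. Of these, 51.3% aligned to Mdm4, which encodes a p53 regulator, with 93.2% identity in the best alignment. Gm13081 on chromosome 4 (5599 bases) came next, and no coding parent was found for it. The longest multi-exon model was 5830417I10Rik on chromosome 3, with 19 exons and 6190 bases, 99% identical to Gon4l at 9644 bases from it. It was followed by both forms of Gm11847 on chromosome 4, with 5197 and 5131 bases, copies of Hnrnpa3, which encodes an RNA binding protein. Gm6325 (similar to Fnd3c2 on the X chromosome) and Gm14490 (similar to Dnmt3b, a DNA methyltransferase gene, on chromosome 2) also had 19 exons, and their parents lay 105080 and 8922 bases away.

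**Figure D1:**
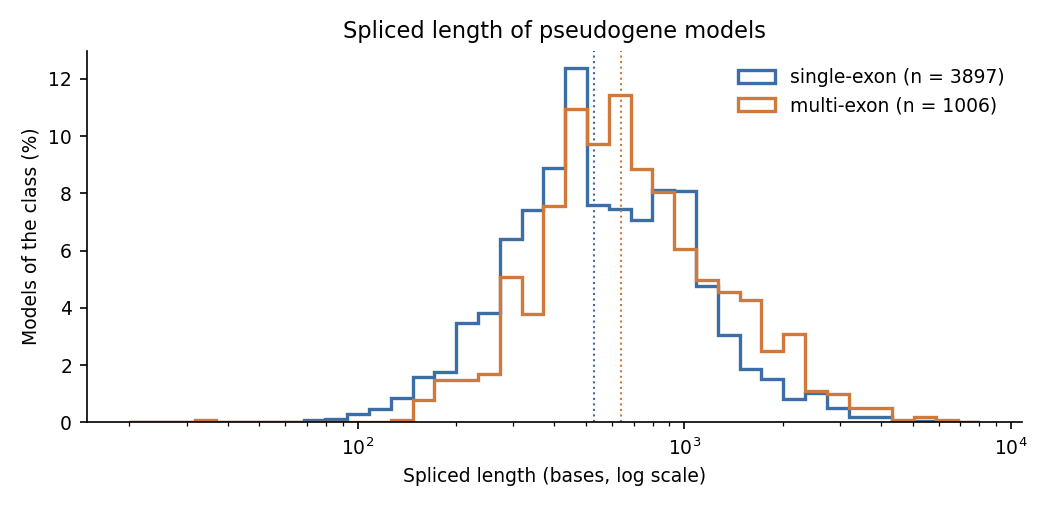
Spliced length of the pseudogene models in bases (log scale) against the percentage of models of each class, for 3897 single-exon and 1006 multi-exon models; dotted lines mark the medians, 530 and 639 bases. The distributions overlap, and the multi-exon one is shifted slightly toward longer models.

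The chromosomes differed widely in the number of pseudogene models per megabase (Mb). The X chromosome held 1146 (6.88 per Mb), chromosome 4 held 723 (4.65 per Mb), chromosome 2 held 746 and chromosome 11 held 499 (4.10 per Mb for both). These 4 chromosomes hold 23.6% of the length and 25.5% of the coding loci of the 21 chromosomes, and they held 3114 models, or 63.5%. The other 17 chromosomes ranged up to 1.63 per Mb on chromosome 14, and the lowest were Y (3 models, 0.189 per Mb), 15 (0.444) and 18 (0.452). The share with a single exon was 80.6% on the 4 dense chromosomes and 77.5% on the others. Without Y, whose 3 models were all multi-exon, it ran from 60.3% on chromosome 14 to 93.4% on chromosome 9.

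The annotator moved with the chromosome. GENCODE M1 credits a model either to HAVANA, the group of manual curators, or to the automatic ENSEMBL pipeline, and 4179 of the pseudogene models were credited to HAVANA and 714 to ENSEMBL. Of the HAVANA models, 69.5% lay on X, 2, 4 and 11, at 4.64 per Mb against 0.628 per Mb on the other chromosomes. Of the ENSEMBL models, 28.4% did, at 0.324 against 0.252 per Mb. Transcripts of another class, processed_transcript, also had 53.0% of their 3283 members on these chromosomes, and lincRNA transcripts had 30.7%. The part of manual curation in the difference between chromosomes was not tested. Models from both annotators were similar in their share of single-exon structures, 79.9% for HAVANA and 77.6% for ENSEMBL, but their median identity to the parent was 89.3% and 98.2%.

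**Figure D2:**
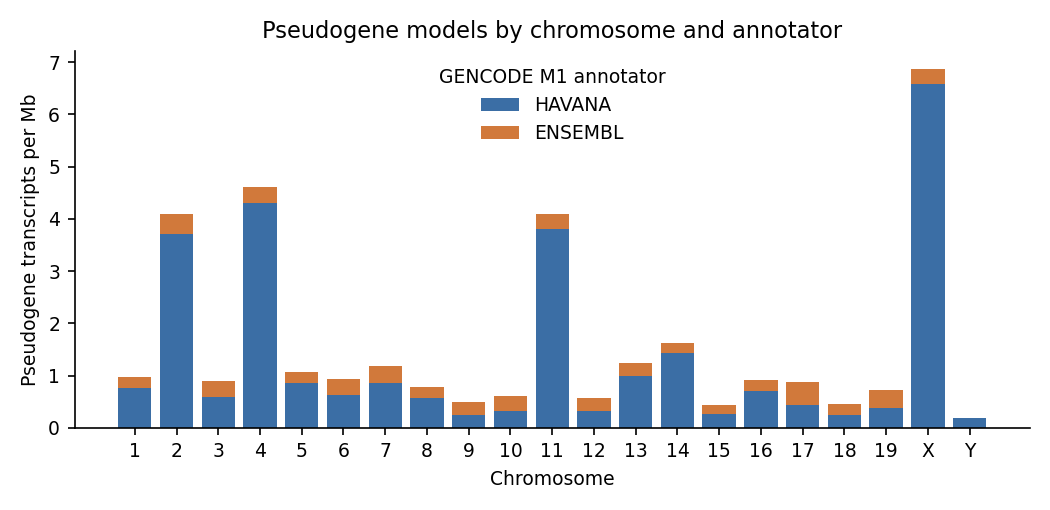
Pseudogene transcripts per Mb on each chromosome, stacked by the annotator that GENCODE M1 names for the model (HAVANA or ENSEMBL). X, 2, 4 and 11 stand above the rest with 6.88, 4.10, 4.65 and 4.10 per Mb in all, while the ENSEMBL part stays between 0.164 and 0.441 per Mb on every chromosome but Y, where it is at 0.

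Pseudogene models seldom belonged to a coding locus. Only 45 of them (0.918%) lay at a locus that also had a transcript with a p_id, 23 single-exon models (0.590% of their class) and 22 multi-exon models (2.19%), at 43 loci. Of these 45, 34 overlapped a coding exon on their own strand, 8 lay inside an intron of the coding gene and 3 did not overlap any coding transcript. In 37 of them the pseudogene was named after another gene than the coding transcript at its locus. The longest was Gm16332 (chr1:141758779-141833046, minus strand, 17 exons, 3423 bases), at the locus of Cfhr2, a complement factor H related gene. It was followed by AC154585.2 (1 exon, 3102 bases) at Vti1b, whose product acts in vesicle transport, Gm10056 (1 exon, 2875 bases) in an intron of Nsmaf, AL732590.1 (2 exons, 2826 bases) at Gm996, and a form of Vmn2r-ps11 (9 exons, 2261 bases) at the vomeronasal receptor gene Vmn2r7. Others among the longest were Gm15922 (10 exons, 2043 bases) at Gm14548, the second form of Vmn2r-ps11 (7 exons, 1952 bases), Tmem102 (1619 bases) and Wnk1 (1 exon, 1302 bases). In Tmem102 and Wnk1 a pseudogene transcript and a coding transcript shared the gene name, as they did in 8 of the 45. Wnk1 encodes a kinase, and its pseudogene transcript lay in an intron of the coding ones. One model with the name of a coding gene, Flg (937 bases, 1 exon, chromosome 3), lay at a locus of its own.

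Lying inside a coding gene was far more frequent than sharing its deposited locus. This comparison depends on how the loci were drawn, since no model overlapping a coding exon on its own strand had another locus. Inside an intron of a coding transcript lay 1172 models (23.9%), 719 on the other strand and 453 on the same strand, and 445 of the latter 453 had a locus of their own. Exons of coding transcripts were overlapped by 67 models on the other strand and 34 on the same strand, and 3623 (73.9%) lay outside every coding transcript. Introns alone make up 35.5% of the known bases of the genome and coding exons 2.62%. Single-exon models lay in introns in 26.4% of cases and multi-exon models in 14.2%, and by GENCODE class the shares were 28.4% for processed and 10.6% for unprocessed models. Of the intronic single-exon models 62.3% were on the strand opposite to the host, compared with 54.5% of the intronic multi-exon models. Among lincRNA transcripts 4.06% lay in introns, and 37.4% overlapped a coding exon on the other strand. On X, 2, 4 and 11 the intronic share of pseudogenes was 16.8%, and on the other chromosomes 36.3% (650 of 1789), near the share of introns in the genome. By annotator it was 25.4% for HAVANA and 15.7% for ENSEMBL. The library protocol describes no step that marks the strand, so reads of an intronic or antisense pseudogene cannot be told apart by strand from those of its host.

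**Figure D3:**
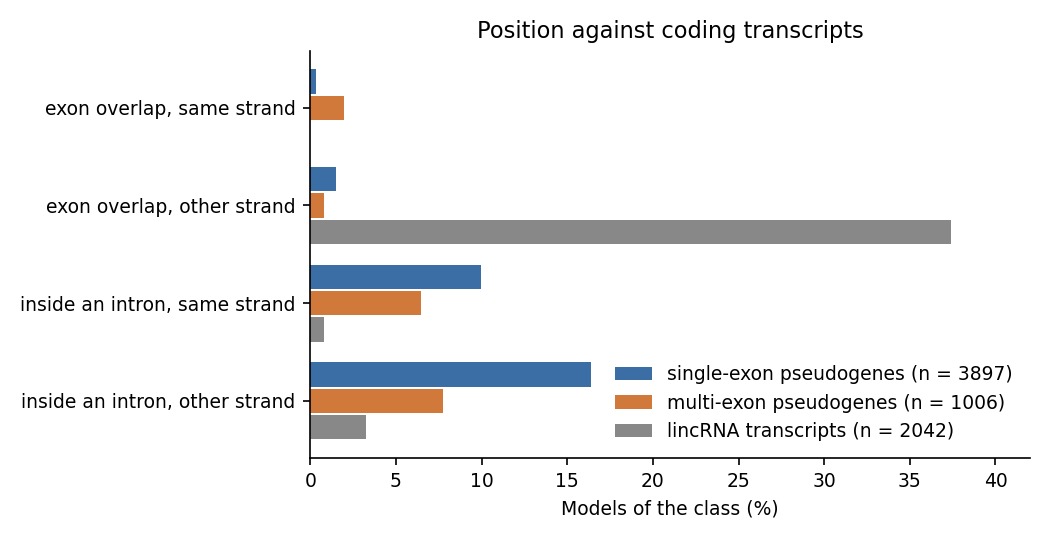
Percentage of single-exon pseudogenes, multi-exon pseudogenes and lincRNA transcripts in each position against coding transcripts; models outside or only partly inside a coding transcript are not drawn. Single-exon pseudogenes have the largest intronic bars (9.96% on the same strand and 16.4% on the other), and the lincRNA bar for exon overlap on the other strand reaches 37.4%.

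The intron around an intronic pseudogene had a median length of 25948 bases. Over all introns of coding transcripts the median was 1378 bases, but a long intron offers more bases to hold a model, and the median intronic base lay in an intron of 27744 bases. Introns around multi-exon models were the longer ones (51026 against 23752 bases in the median). Models outside coding transcripts lay at a median of 26631 bases from the nearest one. The 1172 intronic models were spread over 891 host loci, of which 716 (80.4%) held a single pseudogene locus and 57 held 3 or more. The locus of the Ugt1a genes on chromosome 1, which encode enzymes that couple glucuronic acid to bilirubin and drugs, held most, with 8 single-exon models (Gm15368 to Gm15376, without Gm15375), all on the same strand. The locus of Gm13225 and Gm13242 on chromosome 4 held 7. Cacnb2, encoding a subunit of voltage-gated calcium channels, and Ptprd, encoding a synaptic receptor phosphatase, held 6 each. Frmpd4 and Gm7995 held 5 each, and those with 4 included Agbl4, Etl4, the locus of Gm3002, and the locus of Gm3358. Of the 6 in Cacnb2, 4 were on the other strand, and of the 6 in Ptprd, 5 were. The Gm7995 locus differed in that all 5 of its pseudogenes were multi-exon.

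A list drawn up for long introns and synaptic roles held 191 coding genes, of which 21 (11%) hosted 40 pseudogene models. Of all 22507 coding gene names, 909 (4.04%) hosted at least 1. The list names Ptprd, Lrp1b, Dab1, Pard3, Macrod2 and Dmd individually, and all of them were hosts. It was chosen with earlier results known, so the 11% depends in part on that choice and is no test. Besides Cacnb2 and Ptprd the hosts were, for example, Lrp1b (a lipoprotein receptor), Macrod2, Dmd (dystrophin) and Grin3a (a glutamate receptor subunit). Of the 40 models, 22 lay on the strand opposite to the host. Of the 40, 10 had a ribosomal protein gene as spliced relative and 3 had no coding parent, and over all intronic models 361 of 1172 had a ribosomal relative. Other models in these hosts included the Ran copy Gm13461 in Lrp1b (99.1% identity in the longer of its forms) and the Ppia copy Gm6043 in Cacna2d3 (95.5%). Of 18 striatal genes, which mark medium spiny neurons or take part in the response to cocaine, 1 (5.56%) hosted pseudogenes, a share near that of all coding genes, and none was the parent of one. Pde10a, the phosphodiesterase of medium spiny neurons, held 3 on its other strand, namely Gm15425 (2 exons, 2711 bases, a copy of Trip12 at 89.5% identity), RP23-376B1.4 (1099 bases, a copy of Actb at 86.9%) and Gm15426 (556 bases, a copy of Rpl19 at 82%). RP23-376B1.4 lay within the span of Gm15425. All 3 contained at least 1 in-frame stop codon relative to their parents. Of the 20 splicing regulators, Elavl2, a neuronal RNA binding protein, hosted Gm12653, a copy of Nme6. Ptbp1, which encodes a splicing repressor, was the parent of 4 models, Gm2639 on chromosome 2 and Gm14452, Gm14451 and Gm8424 on X, at 71.4% to 74.7% identity. Neither A2bp1, which encodes the splicing factor also called Rbfox1, nor another gene of that list had any.

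A coding parent, meaning the coding transcript elsewhere in the genome with the best alignment among those aligned to at least 50% of the model, was found for 4579 models (93.4%), 3674 of the single-exon and 905 of the multi-exon class. The 324 without one had a median length of 607 bases. Of the parents, 512 were tied in score between gene names, so the parent of those models is uncertain among near-identical copies. Identity had a median of 90.8% for single-exon (quartiles 83% and 96.4%) and 88.6% for multi-exon models (80.9% and 95.9%), so that the classes differed by less than the spread within each. The median single-exon model reached 47.3% of the length of its parent, with 155 bases missing at the 5′ side and 318 bases at the 3′ side. The aligned share counts all alignments to the parent together. Among 4110 models aligned over at least 90% of their length, 92 were identical to the parent in the best single alignment. That alignment can be shorter than the aligned share, and identity outside it was not measured. The longest identical ones were Gm2223 (1350 bases, X chromosome, parent Eif2s3x, a translation initiation factor), BX890623.1 (1268 bases) and Pgk1-rs7 (1254 bases, parent Pgk1, a glycolytic enzyme) in the single-exon class and Gm8203 (792 bases, parent H2afz, a histone variant), RP23-97D14.2 (603 bases) and Gm7336 (599 bases) in the multi-exon class. At the other end, Gm15060, Gm13117 and Gm14607 among single-exon models were between 65.7% and 66.3% identical to their parents, and Gm15783, Gm12677 and Gm11279 among multi-exon models between 64.6% and 65.9%.

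Single-exon models mostly lacked introns that their parents have. Of 2918 with a spliced parent, 2598 (89.0%) ran through at least 1 parental exon junction, with a median of 3 junctions and up to 25. Their parents were also far away: 13.5% of single-exon models had the parent on the same chromosome and 7.35% within 1 Mb, compared with 52.9% and 34.7% of multi-exon models. By GENCODE class the contrast was wider, with 1.61% of processed and 61.8% of unprocessed models within 1 Mb of the parent. Parents were assigned by alignment score, and neither the exon number of the model nor its GENCODE class entered that assignment. Among coding transcripts with the same score, however, the one with most exons was taken as parent. The exon number of the parent thus entered where scores were tied.

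Multi-exon models comprised both kept introns and other interruptions. Of their 2318 introns (median 650 bases, shortest 5), 63.9% began with GT and ended with AG, the usual splice dinucleotides, against 98.3% of the introns of coding transcripts. Where the intron could be placed on the parent, 1380 of 1768 (78.1%) lay within 10 bases of a parental junction. Of these, 83% had GT and AG, and of the 388 elsewhere 18.6% did. In unprocessed models 90.5% of placed introns matched a parental junction, and in processed models 27.4%. Introns of up to 30 bases, 50 in all, had GT and AG in 6.00% of cases, and they occurred in 47 models. The longest intron, 441323 bases in a form of Gm15710, began with GA and ended with AA.

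The ends of such introns are printed for a model with most exons among copies of Slx and of Mup6, and for a processed model, with 20 exonic bases in lower case and 10 intronic bases in capitals. Gm7421 (9 exons, X chromosome, minus strand) is a relative of Slx, a testis gene of the X chromosome, and the intron shown has 1452 bases (5′ side chrX:28802089-28802118, 3′ side chrX:28800627-28800656).
Gm7421 5′ side: ttgttggacagttaatcgagGTATGACAGG
Gm7421 3′ side: TTTAACTAAGaagacaactgagcacttaag
Mup-ps4 (10 exons in the form with most, chromosome 4, plus strand) is a relative of Mup6, of the major urinary proteins, and the intron shown has 342 bases (5′ side chr4:60450783-60450812, 3′ side chr4:60451135-60451164).
Mup-ps4 5′ side: gcttttaaactccatactgtGTAAGTGAGA
Mup-ps4 3′ side: TAGTTGTTAGccaaataaatccaccccttt
Gm12901 (2 exons, chromosome 4, plus strand) is a processed copy of the ribosomal protein gene Rpl11, and a gap of 327 bases divides it at no parental junction (5′ side chr4:122935551-122935580, 3′ side chr4:122935888-122935917).
Gm12901 5′ side: aggtgcgagagtatgagttgCTGAGGGGGC
Gm12901 3′ side: AGACTATGAGttgcggaaaaataacttctc
The introns of Gm7421 and Mup-ps4 begin with GT and end with AG, and the gap in Gm12901 ends with AG but begins with CT. This contrast was fixed by the choice of examples. Those of Gm7421 and Mup-ps4 were sought among introns with GT and AG at a parental junction. That of Gm12901 was sought among gaps elsewhere that lack this pair.

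By best alignment to any coding transcript the 10 parents with most pseudogene loci were Gm11678 (61 loci), Hmgb1 (53), Rps2 (48), Hmgb2 (38), Rpl17 and Rpl29 (35 each), Gm8226 and Rps6 (30 each), Gm10240 (29) and Rps6-ps1 (28). Gm11678, Gm8226, Gm10240 and Rps6-ps1 have serial or pseudogene-style symbols. The best alignment to a spliced coding gene with another kind of symbol was therefore also taken, a choice made after the first values were seen. It gave such a relative for 4141 models, at 1519 genes, of which 987 (65%) had a single pseudogene locus and 71 had 10 or more. Gapdh came first, with 108 loci on 16 chromosomes (99 single-exon and 11 multi-exon models, median identity 89.1%). It was followed by Rps2 (65 loci), Rps6 (63), Rpl7a (61), Rpl21 (60), Hmgb1 (54), Rpl29 (51), Rpl17 (44), Hmgb2 (38) and Hnrnpa3 (32). Within this list the median identity of the copies varied from 73.8% for Rps6 and 74.2% for Hmgb2 to 93.8% for Rpl21 and 95.4% for Hnrnpa3.

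Relatives grouped by function differed in number more than in structure. Genes with ribosomal protein symbols accounted for 1023 models (20.9% of all), from 77 of the 140 coding genes on the list. The list was drawn up by symbol and also holds Rps6ka1, a kinase gene, and coding entries with the suffix -ps, such as Rps6-ps1. Entries with that suffix or with a single exon could not be taken as spliced relative. The 77 of 140 is therefore not the share of ribosomal protein genes that have copies. Of the 1023 models, 938 were single-exon (91.7%), and the median length was 456 bases and the median identity 89.7%. Chromatin and HMG genes, which package DNA, accounted for 165 models from 12 genes, glycolytic genes for 157 from 8 genes, and RNA binding proteins for 115. Respiratory chain and ATP synthase genes followed with 98, translation factors and protein folding genes with 82 each, proteasome and ubiquitin genes with 71 and cytoskeletal genes with 68. The share with a single exon was 79.5% in all models and lay between 89.7% and 94.9% for ribosomal, glycolytic, chromatin, translation, respiratory and cytoskeletal lists, but between 79.3% and 81.7% for folding, RNA binding and proteasome lists. Olfactory and vomeronasal receptors gave 112 models by spliced relative and 162 by best parent, since many of their coding genes have 1 exon. These had a median identity of 77.9% to their spliced relatives, and 3 of the 112 were on the X chromosome.

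Among multi-exon models the relative with most loci was Slx (26), followed by Etohi1 (17), Mup6 and Rps6 (16 each), Ott (13), Speer4d (12), and Gapdh and Slxl1 (11 each). Copies of Rps6, Speer4d and Gapdh were spread over 6, 8 and 4 chromosomes, while those of the other 5 relatives each lay on 1. Slx and Slxl1 accounted for 28 and 14 models, all on the X chromosome, at median identities of 98.4% and 98.7%. Ott, also a testis gene of the X chromosome, accounted for 14, Mup6 for 21 (all on 1 chromosome) and Etohi1, a zinc finger gene, for 19. Loci whose neighbour within 100 kb shared their coding parent were 10.3% of the multi-exon and 4.92% of the single-exon loci. On the X chromosome, 21 of the 23 models related to Actb were found, with a median identity of 77.9%, as well as 26 of those related to Gapdh.

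Coding sequences of the parents were interrupted in most copies. In 2445 models aligned to at least 90% of the parental coding sequence, 49.0% held an in-frame stop codon, 63.5% a frameshift and 27.8% neither. Single-exon and multi-exon models hardly differed, with neither kind of change in 28.0% and 26.9%. The share without either rose with identity, from 1.96% of models below 80% identity to 75.8% of those at 98% or more. The Gapdh copy Gm12684 carried 1 stop and 4 frameshifts against its best parent, Gm6981. Against Gapdh, its stop replaces codon 46 (Gapdh chr6:125113328-125113354, Gm12684 chr4:99097792-99097818, the codon in capitals).
Gapdh transcript: gtctacatgttcCAGtatgactccact
Gm12684: gtctccatgttcTAGtatggctctact
Substitutions in the aligned coding bases were more frequent at the third codon position (11.3%) than at the first (7.91%) and second (7.15%). In CpG dinucleotides methylated cytosine tends to mutate to thymine. Parental cytosines and guanines of CpG stood opposite T and A of the copy, respectively, at 21.2% of positions. For parental cytosines and guanines elsewhere it was 5.81%. The alignment compares the copy with the present parent and does not show which of them changed. These shares were close in both classes, 21.1% in single-exon and 21.5% in multi-exon models at CpG.

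An A-rich tract, here a stretch of 20 bases with at least 16 A starting within 200 bases after the 3′ end, followed 17.6% of single-exon and 7.55% of multi-exon models. A tract of T by the same measure, as a background on the same strand, followed 5.47% and 5.67%. The tract of A followed 18.2% of processed and 2.86% of unprocessed models. It followed 4.60% of all coding transcripts, 10.6% of the coding transcripts with a single exon and 10.7% of lincRNA transcripts. It was found after 30.9% of the 745 single-exon models that reached to within 50 bases of the parental 3′ end, against 432 of the 2882 that stopped short of it. With identity to the parent the share rose from 7.47% below 80% to 32.6% at 98% or more. Ribosomal protein relatives had it in 37.7% of cases and chromatin and HMG relatives in 6.67%. Examples are given for the ribosomal relatives whose tract lies at the median distance of their list, 36 bases after the end of the model, with 10 bases before it and the 20 bases of the tract in capitals. Rpl28-ps1 (chr1:129935586-129935615, plus strand) is a copy of Rpl28 at 100% identity and Gm12192 (chr11:49511895-49511924, plus strand) a copy of Rps10 at 81.3%.
Rpl28-ps1: gtccactgacTTCCAAAAAAAAAAAAAAAA
Gm12192: ttgagtaagtGAACAAAAACAAAAACAAAA
Both windows hold 16 A because the first window to reach this minimum is printed. Within the window the A form 1 run in the copy that equals its parent and are broken by C in the diverged one. The bases after the window are not shown, and such examples do not test a relation to identity.

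**Figure D4:**
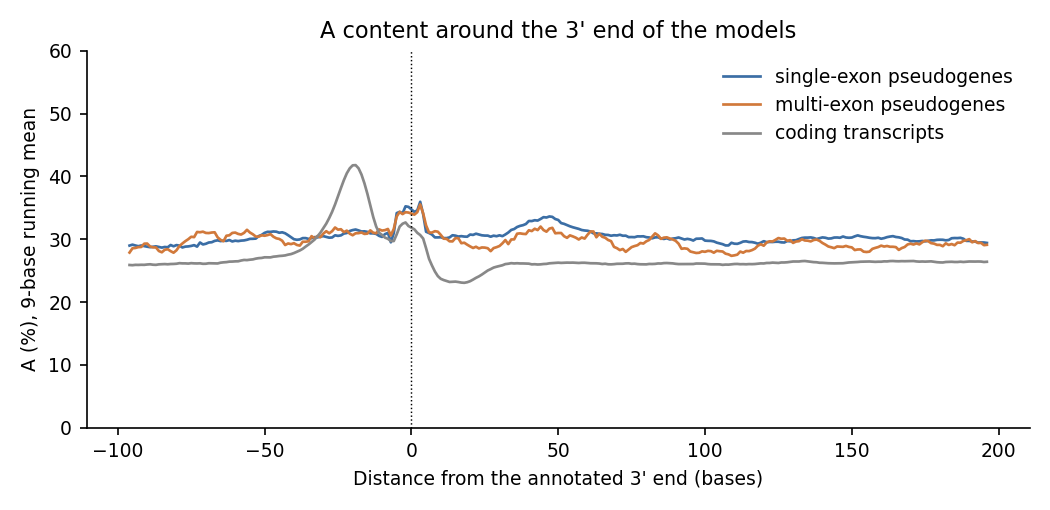
Percentage of A at each distance in bases from the annotated 3′ end, as a running mean over 9 bases, for 3897 single-exon pseudogenes, 1006 multi-exon pseudogenes and 50688 coding transcripts; negative distances lie inside the model. Single-exon pseudogenes average 31.1% A from 21 to 100 bases after the end, multi-exon ones 29.8% and coding transcripts 26.0%, and the peak of coding transcripts lies before their end.

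The sequence of a read alone places it on a pseudogene only where that sequence occurs at a single place. Per the study's methods, Cufflinks was run with a correction for reads that align to several places, and its effect was not examined here. Of all exonic windows of 100 bases in pseudogene models, 81.9% occurred at 1 place in the genome, compared with 96.9% in coding and 97.3% in lincRNA transcripts. Single-exon models reached 83.6% and multi-exon models 74.7%, and by GENCODE class processed models reached 85.6% and unprocessed ones 66.4%. Per model, 2927 of the 4880 that hold such a window were unique throughout and 299 had no unique window (6.13%). Among the latter, the longest included 5 models of 2728 bases on chromosome 2, AL772256.3, AL772256.1, AL772256.4, AL772256.6 and AL772256.5 (AL772256.2 has the same length and no unique window either), each of the 5 97.7% identical to Cwc22, which encodes a splicing factor, and each running through 18 of its junctions. Chromosome 14 had the lowest share of unique windows of any chromosome, 48.5%, and chromosome 11, with 89.8%, had the highest of the 4 dense ones.

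The median share of unique windows fell below 100% in the ranges of highest identity to the parent. In single-exon models the median share of unique windows was 100% up to 95% identity, 94.5% between 95% and 98%, and 60.4% at 98% or more. In multi-exon models it was also 100% up to 95% identity, then 81.0% and 24.9%. Models with no unique window were also found at lower identity. A window that is unique in the genome can still equal a spliced coding transcript, because the parental exons are apart in the genome and joined in the mRNA and in the copy. Of 4802 models that overlap no coding exon, 491 (10.2%) held at least 1 such window, 11.5% of single-exon and 5.21% of multi-exon models, and these were 2.22% of all windows. Rpl10a-ps1 (708 bases, chromosome 1), a single-exon copy of Rpl10a at 100% identity, had 363 of them among 609 windows. The one printed lies at chr1:65041049-65041148 on the minus strand, its only place in the genome, with the part from the second Rpl10a exon in capitals.
Rpl10a-ps1: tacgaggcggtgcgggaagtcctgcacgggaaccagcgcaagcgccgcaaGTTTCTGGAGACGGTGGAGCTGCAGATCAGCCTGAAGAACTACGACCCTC
A read of these 100 bases would align without a gap to the pseudogene and across an exon junction to Rpl10a, and the 2 sources cannot be told apart from the sequence.

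**Figure D5:**
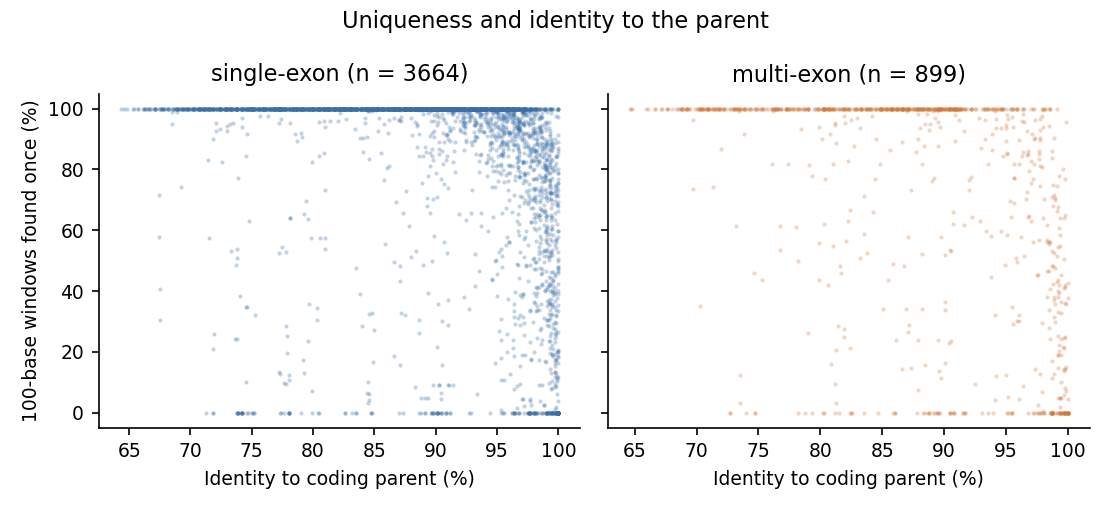
Share of 100-base exonic windows found once in the genome (percent) against identity to the coding parent (percent), with 1 point per single-exon or multi-exon model. Most points lie at 100% until identity passes 95%, and above 98% they spread down to 0%, while single models at 0% also occur at lower identity.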

How the data were processed

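Poly(A) RNA was sequenced by the study and, per its methods, reads were aligned to an Ensembl reference of the NCBIM37 build. The tools listed with the submission are TopHat, Cufflinks, Cuffdiff and CASAVA, for which the sources used here give no version. The authors deposited exon coordinates with locus, TSS group and protein identifiers, but no counts, so sequencing depth does not enter the values here. All 87740 transcripts lay within the NCBIM37 chromosomes, and the 87158 found in GENCODE M1 overlapped their position there.

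Spliced models were aligned to coding transcripts (p_id) with blastn of BLAST 2.17.0 (word size 13, e-value up to 1e-10, alignments of at least 50 bases), and coding transcripts overlapping the model could not be its parent. Identity, junctions and coding changes come from the best single alignment. Junctions needed 10 aligned bases on either side. Windows of 100 bases were matched exactly on both strands of the genome. Python 3.11.15, numpy 2.4.6, pandas 2.3.3, numba 0.67.0 and matplotlib 3.10.9 were used, and the steps were tested on simulated data. No test between groups was made, and shares carry no replicate error.

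The rule for named models took, per class, the 3 longest, the 3 with most exons and the 3 highest and 3 lowest identities (aligned over at least 90%), then the 5 with most repeated windows, the first 10 parents, hosts and p_id loci, the 3 highest and 3 lowest chromosomes, and models whose parent or host is on a gene list. Chromosomes 9 and 14, Flg, Gm15710, the leading spliced relatives and the models whose sequences are printed were added with their values in view. The models and gene lists were chosen with earlier results of these data known. Alternatives to the thresholds, the annotator, the parent rule and the window length were tried. Some items that the rule takes are not reported here.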

Additional observations from a re-analysis of the deposited data

How the results depend on the processing

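Of 41 alternative values for 13 results, 22 stayed within the 95% Wilson interval of a share or within 1.5 times of another value, and 19 moved. No difference was tested. The interval served only as a band for sorting the values. Models and overlapping windows are not independent draws, and the band narrows as their number grows. The counts of 22 and 19 therefore do not measure how robust the results are. The share of single-exon models was 81.1% with introns up to 70 bases closed and 77.6% in ENSEMBL models alone, and the multi-exon length had a median of 2048 bases as genomic span. The highest density per Mb was 7.51 times the median of the chromosomes over all models (X) and 1.77 times in ENSEMBL models alone, where it was chromosome 17 and X stood at 1.18 times. The share at a p_id locus was 0.184% by shared name and 10.0% by overlapping span on the same strand, and the share in introns was 25.4% in HAVANA and 15.7% in ENSEMBL models. A parent was found for 94.5% with 30% of the model aligned, 91.1% with 70%, 91.7% at an e-value up to 1e-30 and 84.5% with named spliced genes only. The A-rich tract followed 7.90% of single-exon models with 18 of 20 A, 30.7% with 14, 8.52% within 50 bases and 27.6% within 500, where T tracts followed 1.44%, 15.8%, 1.10% and 12.4%. Unique windows were 78.0% at 75 bases, 71.3% at 50, and 79.5% when spliced coding transcripts were searched too. Splits by annotator, the named spliced genes and the search of spliced transcripts were chosen after seeing the data. For values that moved, the cause was not tested, except that closing introns, looser or stricter thresholds and shorter windows move a share by construction. No paired analysis was possible because the gene models hold no value for any pool.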
